A study of Oryza sativa with 32 samples.

Results

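Ribosomal protein genes of rice were followed in root and shoot of 3 transgenic lines and of wild type. Members were taken by name: any probe set annotated to a gene with a symbol or synonym that starts with RPL, RPS or CL and a digit, with a leading Os dropped. The rule found 41 of 57381 probe sets, for 25 genes. Of the 70 rice genes that match it, 26 plastid genome genes, 13 mitochondrial genome genes and 6 nuclear genes had no annotated probe set and were not analysed here.

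Each tissue had 4 genotypes with 4 biological replicates, 32 arrays in all. Independent transformants, named AGR1/7, AGR1/8 and also AGR3/8, over-express HvAlaAT, the alanine aminotransferase of barley, from OsANT1, a promoter that the labels call root-specific. They were set against wild type Nipponbare, a japonica cultivar. All plants, wild type included, grew hydroponically with 5 mM NH4+ as nitrogen source, and RNA was taken at maximum tillering at mid-day. Transgene level was not analysed here, and nothing in the labels says whether a replicate was 1 plant or a pool. Over the 8 shoot-marker probe sets, summed intensity was 290.2 to 899.4 on root arrays and 31894.3 to 75116.2 on shoot arrays, so the tissue labels and the markers went together. Values are the deposited array intensities, brought by the authors' processing to nearly the same trimmed mean on every array, so each is a share of the measured signal and not RNA per cell.

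A ribosome joins ribosomal RNA with many proteins in a large and a small subunit. Plants build separate ribosomes for the cytosol, the plastid and the mitochondrion, and those of the plastid are of the bacterial type. Their proteins are encoded partly in the nucleus and partly in the plastid genome, and cells with many chloroplasts carry many of them. Cytosolic ribosomal proteins are all nuclear and are abundant in growing tissue.

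By name, 4 probe sets (2 genes, CL18 and CL27) were plastid, 17 (12 genes) cytosolic, and 16 (10 genes) carried a number used in more than 1 kind of ribosome. The last 4 belonged to rps14/SDH2-1, a single gene that holds mitochondrial S14 and a subunit of succinate dehydrogenase. Among the cytosolic genes, RPL3A and RPL5A were placed by their paralog letter alone. RPL30 was placed there because no plastid counterpart has its number. These are weaker grounds than for the rest of that class. Probe sets of a gene with several are numbered below. The names of 7 probe sets end in x and those of 4 in s, endings that mark probes shared with other transcripts, so their signal may not come from the named gene alone. All 41 probe sets passed the filter on dim probe sets in root, and 40 passed it in shoot and over all arrays, the exception being rps14/SDH2-1 set 4.

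CL18, the plastid counterpart of bacterial large-subunit protein L18, was higher in shoots of the transgenic lines than in wild type shoots. So was rpl5, a large-subunit gene whose name does not tell its ribosome. In bacteria both L18 and L5 bind the smallest RNA of the large subunit. No other member passed the test for the mean of the 3 lines in shoot, and CL27, the other plastid gene, did not.

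CL18 intensity in shoot was 1210.2, 1353.0, 1298.9 and 1440.2 in AGR1/7. It was 1290.7, 1263.6, 998.9 and 1473.3 in AGR1/8, and 865.1, 794.7, 1178.4 and 1457.0 in AGR3/8, against 775.6, 659.3, 483.1 and 760.6 in wild type. Every transgenic shoot array (12) exceeded every wild type one (4), although the lowest AGR3/8 array was close to the highest wild type array. The means were 1325.6 ± 96.5 in AGR1/7, 1256.6 ± 195.4 in AGR1/8, 1073.8 ± 305.1 in AGR3/8 and 669.6 ± 134.7 in wild type (SD, n = 4 each). On the scale log2(intensity + 16), the 3 lines exceeded wild type by 0.85 on average (SE 0.14; limma, Benjamini-Hochberg adjusted p = 0.0036). The change was 0.99 in AGR1/7 (limma adjusted p = 0.00453) and 0.90 in AGR1/8 (limma adjusted p = 0.0102). In AGR3/8 it was 0.65 and missed the threshold of 0.05 (limma adjusted p = 0.0732), but a test of difference among the lines gave limma adjusted p = 0.472. The wild type shoot array with 483.1 was the lowest of its group, and without it the mean change was 0.70 (limma adjusted p = 0.0303). Without AGR1/8 replicate 4 the AGR1/8 call ended (limma adjusted p = 0.0506). Without AGR3/8 replicate 1 that line passed too (0.74, limma adjusted p = 0.0293). In a bulk sample, fewer cells of a type and less RNA per cell cannot be told apart, nor can more of either.

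Leaf markers were also higher for the mean of the lines, without passing the test and not in the lines' order for CL18. Over 8 probe sets for photosynthesis genes, summed shoot intensity ran over 37501.1 to 43835.8 (AGR1/7), 37474.3 to 45502.1 (AGR1/8) and 36937.5 to 75116.2 (AGR3/8), against 31894.3 to 37739.1 in wild type shoots. Of the 8, 7 had a change above 0 and 4 an unadjusted p under 0.05, none passed, and the median change was 0.26. By line the marker median was 0.17 in AGR1/7, 0.19 in AGR1/8 and 0.50 in AGR3/8, with 0, 0 and 4 of 8 at an unadjusted p under 0.05, so AGR3/8 had the highest marker median and the lowest CL18 change. Their part in the CL18 result was not tested.

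For rpl5 the shoot arrays read 715.4, 839.8, 803.8 and 851.4 in AGR1/7. They read 863.9, 941.2, 677.8 and 891.2 in AGR1/8, and 655.4, 651.2, 655.1 and 875.8 in AGR3/8, against 638.2, 459.1, 429.3 and 638.2 in wild type. Here too no transgenic array fell to the wild type range, by a narrow margin in AGR3/8. The mean change was 0.53 (SE 0.11; limma adjusted p = 0.0187). By line it was 0.57 in AGR1/7 (limma adjusted p = 0.0393), 0.64 in AGR1/8 (limma adjusted p = 0.0211) and 0.39 in AGR3/8 (limma adjusted p = 0.172). The call for the mean of the lines ended without wild type shoot replicate 3 (0.43, limma adjusted p = 0.113) or replicate 2 (0.47, limma adjusted p = 0.0992). With line as a random unit it ended as well (limma adjusted p = 0.117). In that fit 115 of all 38129 probe sets passed, against 599 in the main one. Leaving out 1 array also ended the AGR1/7 call for rpl5 in 6 of 16 analyses and the AGR1/8 call in 4 of 16.

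**Figure D1:**
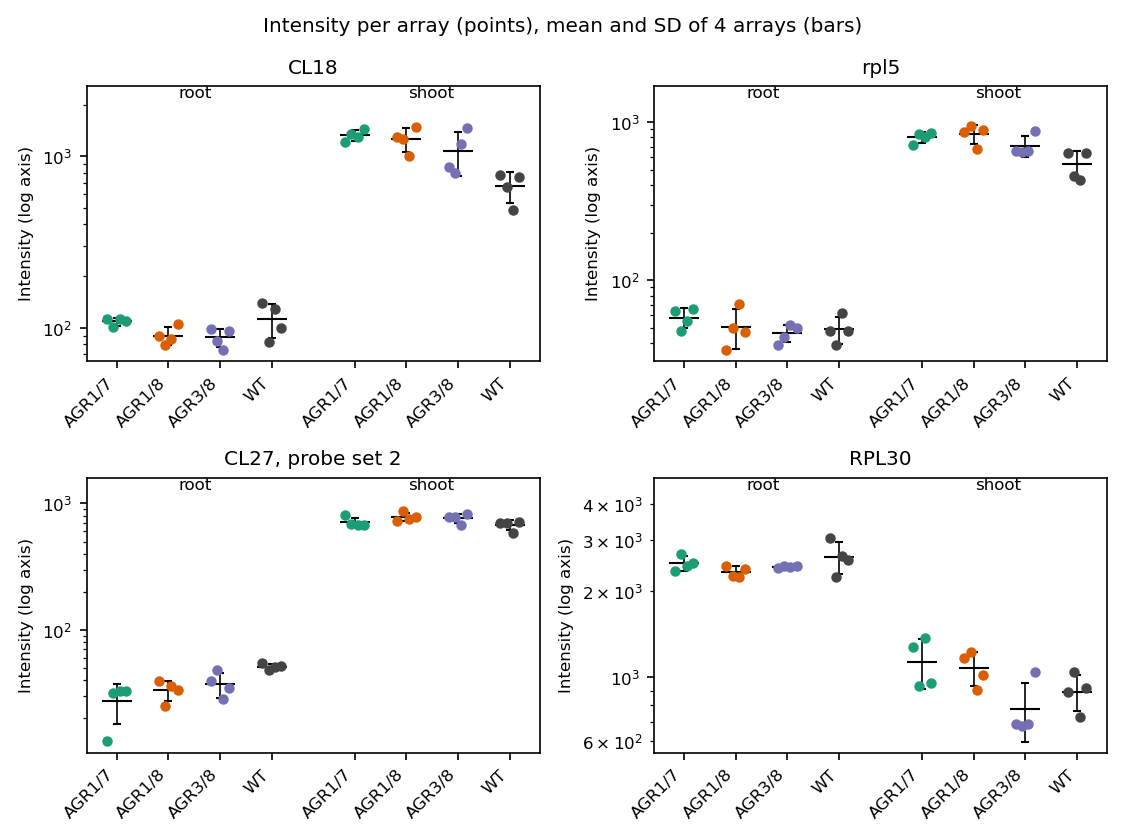
Intensity (log axis) of CL18, rpl5, CL27 probe set 2 and RPL30 on each array, with points for arrays and bars for the mean and SD of 4 arrays, for the 3 lines and wild type (WT) in root and in shoot. In shoot, CL18 and rpl5 lie above every wild type array on all 12 transgenic arrays, and in root CL27 probe set 2 lies below every wild type array.

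CL27, whose bacterial counterpart L27 lies near the site of peptide bond formation, was measured by 3 probe sets. In shoot they changed by 0.19 (set 1), 0.16 (set 2) and 0.11 (set 3), none past the threshold (limma adjusted p = 0.376, 0.355 and 0.582). CL27 set 1, for example, averaged 576.4 ± 76.3 in AGR1/7, 515.0 ± 56.6 in AGR1/8, 568.6 ± 83.8 in AGR3/8 and 479.4 ± 18.4 in wild type shoots (SD, n = 4 each). The lines overlapped wild type on all 3 probe sets.

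Counted together, 2 of 40 members passed the test for the mean of the lines in shoot, both higher, where 1.57% of all 38129 probe sets passed and 0.913% passed as higher. A further description is their direction: 37 of 40 had a change above 0, against 49.9% of all probe sets, with a median of 0.22 against 0.00 (rounded) for all. An unadjusted p under 0.05 was reached by 24 of 40. These members share arrays and cytosolic ones covary, so their number is not a number of independent observations.

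Among the 17 cytosolic probe sets, 16 had a change above 0 in shoot, the median was 0.24 and none passed the test. RPS27AA, which encodes ubiquitin fused to a small-subunit protein, came closest at 0.37 (SE 0.10; limma adjusted p = 0.0689). Its shoot level was 3164.6 ± 442.5 in AGR1/7, 3029.7 ± 268.1 in AGR1/8, 2901.0 ± 411.1 in AGR3/8 and 2329.8 ± 185.1 in wild type (SD, n = 4 each). RPL5A, a cytosolic large-subunit gene with a name like that of rpl5, changed by 0.31 (limma adjusted p = 0.37).

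**Figure D2:**
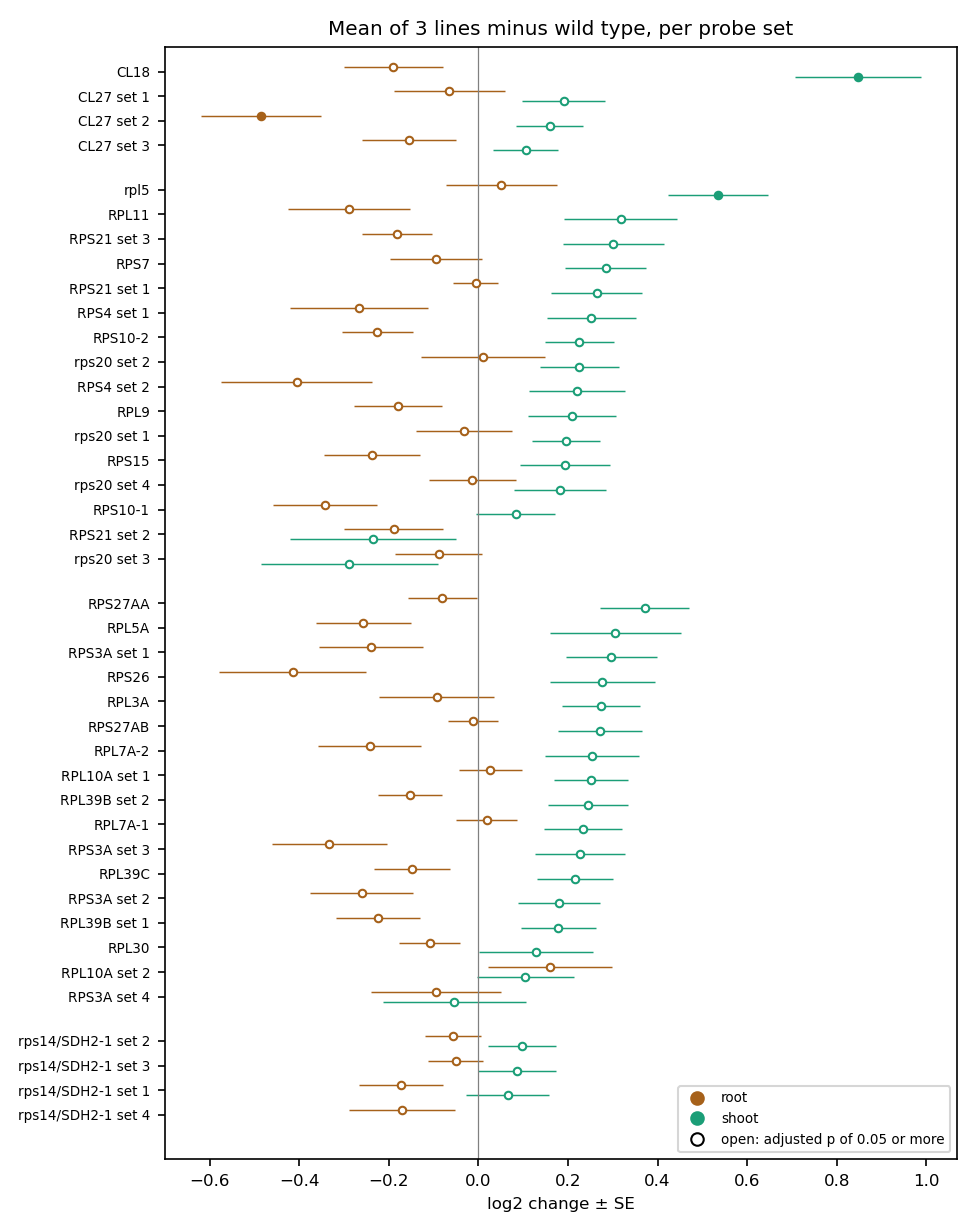
Change on the log2(intensity + 16) scale (± SE) of the mean of 3 lines minus wild type for each member probe set, in root (brown) and shoot (green), grouped from the top as plastid, not told by the name, cytosolic and rps14/SDH2-1, with filled points for a limma adjusted p under 0.05. Most shoot points lie right of 0 and most root points left of it, but only CL18 and rpl5 in shoot and CL27 set 2 in root are filled.

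Counts against wild type were also taken line by line in shoot, which does not test a difference between lines. In AGR1/7, 3 of 40 members passed as higher, at a background of 1.6% (0.873% higher), with a median of 0.34. The third beside CL18 and rpl5 was RPS7, a small-subunit gene, at 0.45 (limma adjusted p = 0.0493). Its arrays read 1294.3, 999.1, 1223.2 and 1157.3 in AGR1/7, against 834.5, 914.2, 710.9 and 962.3 in wild type. All AGR1/7 arrays lay above all wild type arrays, but 11 of 16 analyses that each left out 1 array lost the RPS7 call. In AGR1/8, 2 of 40 passed as higher (background 1.82%, or 1.11% higher; median 0.24), and in AGR3/8 none did (background 0.868%; median 0.08; 5 of 40 at an unadjusted p under 0.05). Without AGR3/8 shoot replicate 1, 4 members passed in AGR3/8, where 1411 of all 38129 probe sets did, against 331 with every array.

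A test among the 3 lines called 2 of 40 members in shoot, where 2.26% of all probe sets passed. For RPL11, a large-subunit gene, the arrays read 1961.4, 1164.7, 1736.9 and 1619.3 in AGR1/7. They read 1569.0, 1374.0, 1294.1 and 1449.0 in AGR1/8 and 886.8, 828.2, 1003.6 and 1268.3 in AGR3/8, against 1120.5, 1098.0, 823.6 and 1172.8 in wild type. AGR3/8 overlapped wild type, and the widest gap between line means was 0.69 (limma adjusted p = 0.0431). For rps20 set 1, a small-subunit gene, that gap was 0.39 (limma adjusted p = 0.0463), with 593.3 to 748.8 in AGR3/8 and 628.4 to 747.7 in wild type, and 830.2 to 953.2 in AGR1/7 and 774.1 to 960.7 in AGR1/8. The RPL11 call was lost in 11 and the rps20 call in 13 of 16 analyses without 1 array, so both differences sat at the threshold.

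In root the members leaned the other way. CL27 set 2 was lower in the transgenic lines, with 13.2, 31.4, 32.6 and 32.8 in AGR1/7, 39.5, 25.2, 35.7 and 33.3 in AGR1/8, and 39.1, 48.2, 28.2 and 34.5 in AGR3/8, against 54.3, 48.4, 50.6 and 51.8 in wild type. No transgenic array of 12 reached the wild type range, the closest pair being 48.2 and 48.4. The mean change was -0.49 (SE 0.13; limma adjusted p = 0.0474), and it was -0.66 in AGR1/7 (limma adjusted p = 0.0464). Of the 16 analyses that left out 1 array, 14 lost the call for the mean, with the highest limma adjusted p at 0.137 without wild type root replicate 1, and all 16 lost the AGR1/7 call. The call for the mean was also lost with a constant of 1, no filter, array weights and line as a random unit, with limma adjusted p = 0.07, 0.0816, 0.0609 and 0.16. The other CL27 probe sets changed by -0.06 and -0.15 in root, with limma adjusted p = 0.801 and 0.394, and set 2 is one of those whose name marks shared probes.

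CL27 set 2 was the only member of 41 that passed for the mean of the lines in root (background 5.32%, with 3.28% higher and 2.04% lower). Only 5 of 41 had a change above 0, against 54.9% of all probe sets, and the median was -0.15 against 0.03. CL18 read far lower in root than in shoot, with 100.6 to 113.1 on AGR1/7 root arrays and 79.2 to 105.4 on AGR1/8 ones. It read 74.3 to 98.0 on AGR3/8 root arrays, against 82.5 to 138.7 on wild type ones. The mean change of CL18 in root was -0.19 (limma adjusted p = 0.321). Among cytosolic members RPS26, a small-subunit gene, had the largest root change at -0.41 (limma adjusted p = 0.141). None of the 17 cytosolic probe sets passed in root, and 6 had an unadjusted p under 0.05.

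By line, 2 of 41 members were lower in AGR1/7 roots (background 2.47%, or 0.949% lower), none passed in AGR1/8 (2.48%; 1 of 41 at an unadjusted p under 0.05) and none in AGR3/8 (5.41%; 8 of 41). The AGR3/8 count was 4 without AGR1/7 root replicate 1, which enters the shared estimate of spread. In that analysis 3443 of all 38129 probe sets passed for AGR3/8, against 2064 with every array. Beside CL27 set 2, the AGR1/7 call was RPS21 set 2, with 10.3, 4.6, 3.0 and 3.5 in AGR1/7 and 12.3, 19.2, 16.3 and 19.0 in wild type. No array overlapped, but these intensities are near or under the added constant of 16, so the change of -0.62 (limma adjusted p = 0.0275) rests on very dim signal. RPS21 sets 1 and 3, which are bright, changed by 0.01 and -0.26 and did not pass. RPS21 set 2 was also the only member of 41 called among the lines in root (gap 0.73, limma adjusted p = 0.00987; background 2.99%).

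Measures of the arrays also varied between the root groups. Summed intensity of 20 dividing-cell marker probe sets (DNA replication and mitotic cyclin genes) ran over 1533.8 to 2517.4 (AGR1/7 roots), 2260.9 to 3246.7 (AGR1/8 roots) and 1809.3 to 2170.3 (AGR3/8 roots), against 2557.3 to 4409 in wild type roots. The wild type value of 4409 came from replicate 1, the array least correlated with its own group (mean r 0.954, against a root median of 0.982). Of 19 such probe sets tested in root, 13 had an unadjusted p under 0.05 for the mean of the lines. None passed the adjusted threshold there, with a median change of -0.63. In AGR3/8 roots 1 of 19 passed, as lower (background 5.41%), and none did in AGR1/7 or AGR1/8 roots (2.47% and 2.48%). An unadjusted p under 0.05 was reached by 9 (AGR1/7), 1 (AGR1/8) and 16 (AGR3/8). By line the marker median was -0.63 (AGR1/7), -0.39 (AGR1/8) and -0.89 (AGR3/8), beside member medians of -0.23, -0.06 and -0.15. The lowest marker median was thus in AGR3/8 and the lowest member median in AGR1/7. GAPDH control probes for the 3′ end over those for the 5′ end, a measure of RNA integrity and labelling, gave ratios of 2.43 to 4.80 (AGR1/7 roots), 6.76 to 57 (AGR1/8 roots) and 2.54 to 4.68 (AGR3/8 roots), against 4.84 to 18.33 in wild type roots. Their part in the root results was not tested.

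The change of the lines from wild type differed between tissues for 3 of 40 members, all with a lower value in root than in shoot (background 1.95%, or 0.797% lower). For short, that change is called the transgenic effect below. Wild type was the only control, so the transgene and the transformation itself cannot be told apart. CL18 led with a difference of effects of -1.04 (SE 0.19; limma adjusted p = 0.00318). CL27 set 2 followed at -0.64 (SE 0.15; limma adjusted p = 0.0233), and RPS10-2, a small-subunit gene, at -0.45 (SE 0.11; limma adjusted p = 0.0275). The call for CL18 held in all 32 analyses that left out 1 array. The other calls ended without wild type shoot replicate 3 and without wild type root replicate 1, with limma adjusted p of 0.069 and 0.055 for CL27 set 2 and of 0.086 and 0.062 for RPS10-2.

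RPS10-2 shows what such a difference looks like in a bright gene. In root it read 1274.8, 1801.4, 1586.8 and 1721.1 in AGR1/7, 2131.4, 1915.5, 1743.1 and 2151.5 in AGR1/8 and 1637.6, 1708.5, 1641.8 and 1730.9 in AGR3/8, against 2081.0, 2016.6, 2079.1 and 1969.9 in wild type. In shoot it read 1803.0, 1572.2, 1783.9 and 1422.6 in AGR1/7, 1450.6, 1498.2, 1409.8 and 1413.4 in AGR1/8 and 1304.7, 1277.0, 1347.2 and 1472.1 in AGR3/8, against 1260.8, 1323.8, 1086.0 and 1372.8 in wild type. The change was -0.23 in root and 0.23 in shoot, neither past the threshold alone.

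Over all members, 3 of 40 differences of effects were above 0, against 54.2% of all probe sets, and the median was -0.38 against 0.03. None of the 17 cytosolic members passed, though 13 had an unadjusted p under 0.05. The count of 3 was sensitive to single arrays. It was 10 without AGR3/8 shoot replicate 1 or without wild type root replicate 2, 7 without AGR1/7 root replicate 2, 5 without AGR1/7 shoot replicate 4 or AGR1/8 root replicate 4, and 1 without wild type shoot replicate 3 or wild type root replicate 1. In the same order, all probe sets called were 972, 1603, 907, 689, 909, 313 and 319 of 38129, against 745 with every array.

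The same difference was then taken for each line, a contrast added after the data were seen. In AGR1/7, 20 of 40 members passed, all lower in root relative to shoot (background 3.04%, or 1.56% lower), with a median of -0.56. They were 10 of 17 cytosolic members, 8 of 16 whose name does not tell and 2 of 4 plastid ones. In AGR1/8 (background 0.619%, or 0.323% lower) and in AGR3/8 (background 2.25%, or 0.865% lower) CL18 alone passed, at -1.16 (limma adjusted p = 0.00778) and -0.94 (limma adjusted p = 0.0278). In AGR1/7 CL18 stood at -1.01 (limma adjusted p = 0.0166). Over the analyses without 1 array, the AGR1/8 count was 1 to 2 and the AGR3/8 count 0 to 4. Whether the difference of effects itself differed between lines was not tested, and the 3 lines share the wild type arrays.

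The widest AGR1/7 values were those of RPS26, RPL11 and CL18. RPS26 in root was 499.9, 1067.3, 958.7 and 1033.9 in AGR1/7, against 1743.2, 1133.1, 1282.9 and 1147.3 in wild type. In shoot it was 846.5, 527.9, 691.9 and 514.0 in AGR1/7, against 444.0, 473.8, 359.5 and 514.7 in wild type. AGR1/7 was thus below wild type on all root arrays, and above it on 3 of 4 shoot arrays with the fourth just under the highest wild type value. The difference of effects for RPS26 was -1.10 (SE 0.26; limma adjusted p = 0.0205), for RPL11 -1.04 (SE 0.24; limma adjusted p = 0.0168) and for RPL5A, which with L11 carries the smallest ribosomal RNA into the cytosolic large subunit in yeast, -0.89 (SE 0.23; limma adjusted p = 0.036).

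AGR1/7 replicate 1 was the extreme array in both tissues for RPS26, lowest in root and highest in shoot. The count of 20 was 7 without that root array and 5 without that shoot array. It was 4 without wild type shoot replicate 3, and 10 without wild type root replicate 1 or without AGR1/7 shoot replicate 3. The number of all probe sets called was not taken in these analyses of a single line. Whether calls fell in general there cannot be told, so the lower counts are not read as particular to the members.

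**Figure D3:**
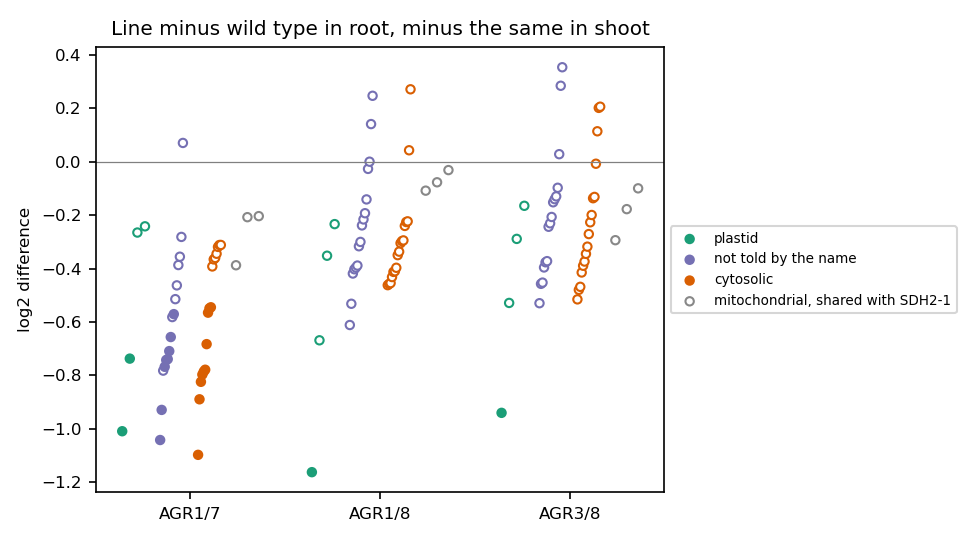
Change of each line from wild type in root minus its change in shoot (log2 scale, points for the 40 member probe sets tested, coloured by class, filled for a limma adjusted p under 0.05). In AGR1/7, 20 points are filled and all of those lie below 0. In AGR1/8 and AGR3/8 the single filled point is CL18.

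Between the tissues themselves the classes parted. In wild type, root was higher than shoot for 15 of 17 cytosolic members and lower for none, and lower for 4 of 4 plastid members. In all, 33 of 40 members passed, 27 higher and 6 lower in root, where 59.2% of all probe sets passed, 31.9% higher and 27.3% lower.

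RPL30, a large-subunit gene, was 3038.0, 2225.6, 2647.4 and 2549.8 in wild type roots, against 887.5, 1040.9, 725.5 and 916.9 in wild type shoots. The groups were far apart, with a difference of 1.54 (SE 0.13; limma adjusted p = 1.2e-11). RPS26 differed by 1.52 (limma adjusted p = 1.37e-08), RPL5A by 1.13 (limma adjusted p = 6.44e-07), and RPL7A-1 and RPL7A-2, paralogs for a large-subunit protein, by 1.02 and 1.01. The cytosolic median was 0.67. The other 2 cytosolic probe sets were RPL10A set 2 (0.32) and the dim RPS3A set 4 (-0.19).

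CL27 set 1 was 16.2, 10.8, 14.7 and 16.6 in wild type roots, against 506.5, 475.2, 468.6 and 467.2 in wild type shoots. Root signal was near the added constant, and the difference of -4.02 (SE 0.13; limma adjusted p = 6.57e-22) is compressed by that constant. CL27 sets 2 and 3 differed by -3.35 and -1.97, and CL18 by -2.42 (limma adjusted p = 2.85e-14). The CL27 probe sets thus shared a direction but not a size.

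Among members whose name does not tell the ribosome, 10 of 16 were higher in root and 2 lower. RPS21 set 3 (1.32), RPS15 (1.06), RPL11 (0.95), RPS7 (0.89) and RPS21 set 1 (0.74) were highest. The lower ones were rpl5 at -3.08 (SE 0.15; limma adjusted p = 6.11e-18) and RPS10-1 at -0.74. Over the 32 arrays, rpl5 was the member most like CL18 (Pearson r = 0.990), with CL27 set 1 next (r = 0.979), values given as a description that the gap between root and shoot largely sets. For rps14/SDH2-1 the probe sets disagreed, with root above shoot for set 3 (0.56) and set 2 (0.45) and no call for set 1 (-0.22).

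**Figure D4:**
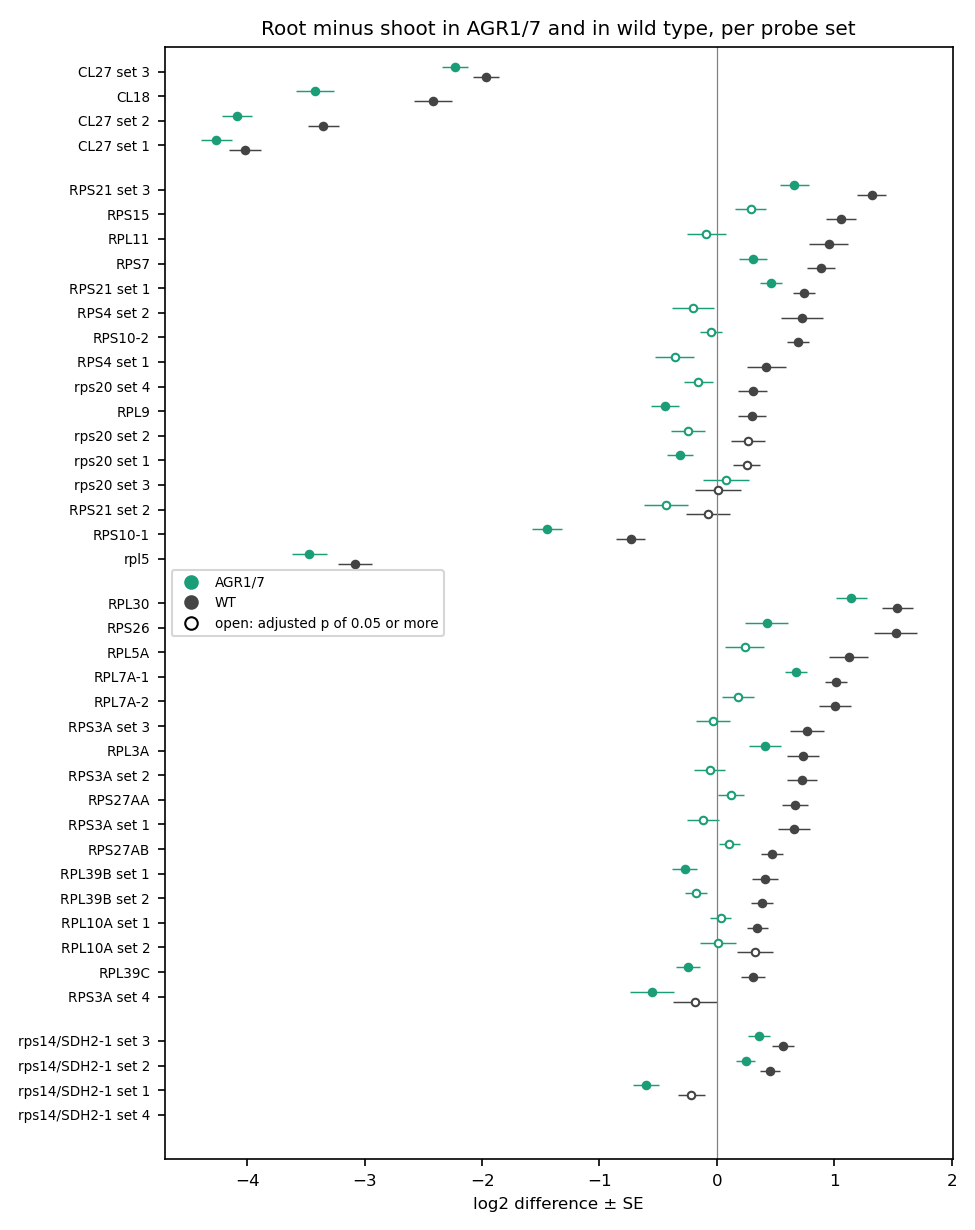
Root minus shoot on the log2(intensity + 16) scale (± SE) for each member probe set in AGR1/7 (green) and wild type (grey), grouped as plastid, not told by the name, cytosolic and rps14/SDH2-1, filled for a limma adjusted p under 0.05. Plastid members and rpl5 lie far left of 0 in both genotypes. Cytosolic members lie mostly right of 0 in wild type, and closer to 0 in AGR1/7.

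The gap between tissues was larger for CL18 in the lines, at -3.42 in AGR1/7, -3.58 in AGR1/8 and -3.36 in AGR3/8, against -2.42 in wild type. Of the 17 cytosolic members, 4 were higher and 3 lower in root in AGR1/7 (background 58.9% of all probe sets, 31.7% higher and 27.2% lower), 11 higher and 0 lower in AGR1/8 (58.2%, as 32.7% and 25.5%) and 8 higher and 0 lower in AGR3/8 (58.9%, as 34.3% and 24.7%), against 15 higher and 0 lower in wild type. The 3 lower in AGR1/7 were RPS3A set 4 (-0.55), RPL39B set 1 (-0.27) and RPL39C (-0.24). L39 lines the tunnel through which the new peptide leaves the ribosome in yeast. These counts share the arrays of the tests above.

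Cytosolic members varied together among replicates. After each group's mean was taken off, the mean pairwise correlation of the 17 cytosolic probe sets was 0.62 in root and 0.64 in shoot over 16 arrays, against 0.011 and 0.00821 for all probe sets. CL18 and rpl5 followed each other in shoot (r = 0.82) but hardly in root (r = 0.18), where both read far lower than in shoot. With CL27 sets 1, 2 and 3, CL18 had r of 0.032, 0.24 and 0.25 in shoot, and 0.25, 0.15 and -0.039 in root. The points share arrays and array scaling, and no test is attached.

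In root, the mean of the cytosolic members and the mean of 19 dividing-cell markers deviated together (Pearson r = 0.88, Spearman rho = 0.89, n = 16 arrays). Without the 2 arrays farthest from the marker median, wild type replicate 1 and AGR1/7 replicate 1, r was 0.84. In shoot, over the 10 markers that passed the filter, r was -0.16. The marker deviations ran only from -0.13 to 0.17 there, against -0.56 to 0.65 in root, so that r rests on a narrow range. In shoot the markers' summed intensity overlapped between groups at 729.9 to 859 (AGR1/7), 841.1 to 936.5 (AGR1/8) and 740.2 to 854.2 (AGR3/8), against 745.1 to 926.3 in wild type. Those sums rest mostly on a few replication genes, such as OsRPA14 (223.2 to 327.1 over shoot arrays) and OsRPA32-2 (176.1 to 243.3). The mitotic cyclin gene CYCB1-1 read only 0.4 to 9.2 there. The shoot sums and the shoot r therefore say little about dividing cells.

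**Figure D5:**
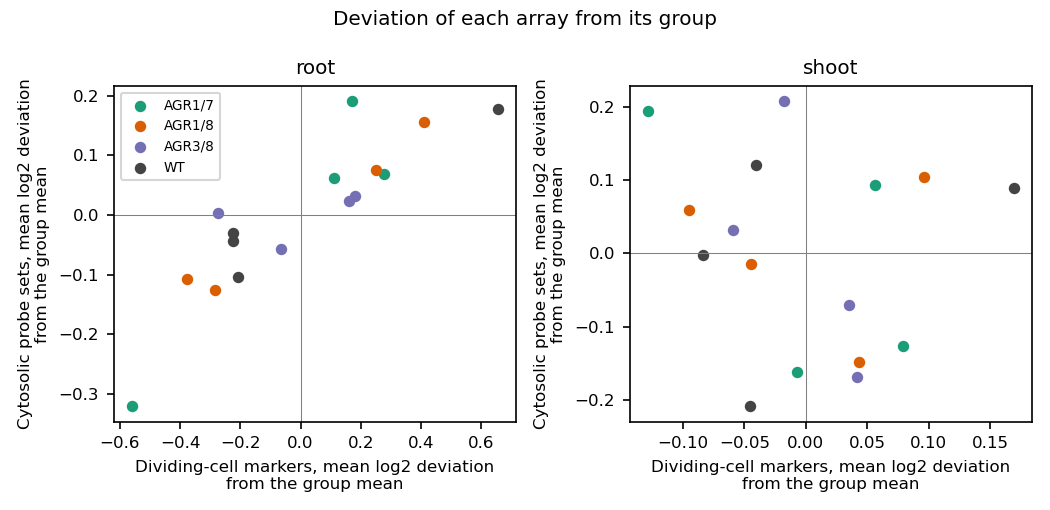
Deviation of each array from its group mean (log2 scale) for the mean of the 17 cytosolic members against the mean of the dividing-cell markers, in root and in shoot, 16 arrays each, coloured by genotype. Root arrays run along a rising line with wild type replicate 1 and AGR1/7 replicate 1 at its ends, and shoot arrays show no such line.

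Other genes of translation and plastid gene expression were read from lists. A list meant for plastid transcription and plastid ribosome assembly, matched by the letters of gene names, had 6 of 9 probe sets higher in transgenic shoots. None was lower and the median was 0.51, where 0.913% of all probe sets were higher. By line 3 of 9 passed in AGR1/7, 4 in AGR1/8 and 1 in AGR3/8, all higher, where 0.873%, 1.11% and 0.456% of all probe sets were higher. The count holds 3 probe sets of 1 gene, AL1 (0.46, 0.52 and 0.55). The others were ASL1, known in rice as a gene for plastid ribosomal protein S20 (0.57, limma adjusted p = 0.0025), wsl6 (0.52) and wsl3 (0.51), whose rice mutants have white-striped leaves. The lines differed for wsl3 in shoot (widest gap 0.62, limma adjusted p = 0.0253), with 136.9 to 158.0 (AGR1/7), 117.6 to 141.2 (AGR1/8) and 68.2 to 114.4 (AGR3/8), against 66.9 to 86.1 in wild type, so AGR3/8 overlapped wild type. V2, OsSig2B and wsl8 did not pass. The letters alone do not show that V2 and wsl8 act in plastid transcription or ribosome assembly.

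ASL1 does not carry a name that the rule takes, but its pattern is given beside CL18. In shoot it read 1700.3, 1891.8, 1667.0 and 1847.9 in AGR1/7, 1720.5, 1793.0, 1467.9 and 1812.8 in AGR1/8 and 1424.7, 1698.9, 1951.2 and 2068.6 in AGR3/8, against 1306.2, 1149.0, 1084.4 and 1166.6 in wild type. No transgenic array reached down to wild type. In root ASL1 changed by -0.26 (limma adjusted p = 0.206), and the difference of effects was -0.82 (limma adjusted p = 0.0025). Only wsl3 of 6 list members passed in root, higher by 0.55 (limma adjusted p = 0.005), where 3.28% of all probe sets were higher. In wild type, 8 of 9 were lower in root than in shoot, where 27.3% of all probe sets were.

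Translation factors gave no call in shoot or root for the mean of the lines (0 of 17 each by limma, 9 and 1 at an unadjusted p under 0.05), with medians of 0.17 and 0.02. None of 3 aminoacyl-tRNA synthetases (HisRS, LysRS, MetRS) passed in either tissue, and none had an unadjusted p under 0.05. Nucleolar ribosome assembly genes had 0 of 8 in both (2 in shoot and 1 in root at an unadjusted p under 0.05). That list also took BRXL1 and BRXL2 by their letters, which are BREVIS RADIX-like genes and not known as assembly factors, so 6 of its 8 probe sets bear on assembly. In wild type, 11 of 17 translation factors were higher in root (31.9% of all probe sets were), led by eIF-4A-1 (1.24), a helicase that unwinds mRNA for initiation. One of the 11, OsIF1-1, was matched by its letters but is known in rice as an inhibitor of mitochondrial ATP synthase. In the nucleolar list only PES, which acts in large-subunit assembly, was higher in root (1.39).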

How the data were processed

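The deposited table holds linear array intensities. Per the labels' protocols, total RNA was biotin-labelled and hybridised. The authors' software and scaling are not given in the sources used here, but the 2% trimmed mean was about 100.01 to 100.02 on every array. Of 57381 probe sets, 22436 were paired with 1 gene, 95 with several and 34850 with none. Controls (187) were removed, 16 was added, log2 was taken, and the dimmest 33.3% were left out, leaving 38129. limma 3.58.1 (R 4.3.3; lmFit, eBayes with trend) fitted root, shoot or all arrays, with Benjamini-Hochberg adjustment over all 38129 and a threshold of 0.05. The fits were tested on simulated data. The number of arrays (4 a group) limits precision. Labels call replicates biological, without saying from what, so p-values measure the spread between these samples.

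The members and lists were chosen with earlier results of these data known. Named members are CL18, those called in each comparison (up to a fixed number by size), the 3 brightest per class and the 2 closest to CL18. RPS27AA, RPL5A, RPS26 and the RPL39 genes are also named where the rule does not reach, chosen after their values were seen. An ethylene response factor and homeobox genes caught by list patterns were removed by name. Alternatives were another added constant, other filters, quantile normalisation, median centring, array weights, a replicate block, 1 fit of 32 arrays, line as a random unit, and leaving out each array. No sequences were available to print.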

Additional observations from a re-analysis of the deposited data

Results flagged for a closer look

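Of 216 groups of 4 arrays over 27 named probe sets, 13 held an array far from the other 3 by Dixon's test, and chance gives about 1 in 20. AGR1/7 root replicate 1 was the low array in 5 of them: CL27 set 2 (13.2, others 31.4 to 32.8), RPS15 (945.5, others 1385.4 to 1440.7), RPS10-1 (67.7, others 118.7 to 128.0), RPL39B set 1 (1628.0, others 2344.7 to 2468.3) and RPL9 (1210.8, others 1782.2 to 1828.2). AGR3/8 shoot replicate 4 was the high array for rpl5 (875.8, others 651.2 to 655.4) and RPL30 (1042.6, others 679.4 to 686.9). The rest were spread over other arrays. CL27 set 2 was low in wild type shoot replicate 3 (581.3, others 697.4 to 712.6) and high in AGR1/7 shoot replicate 1 (805.0, others 671.3 to 688.1). The dim RPS21 set 2 was low in AGR1/7 shoot replicate 2 (3.8) and high in AGR3/8 root replicate 3 (26.2). RPS15 was high in AGR1/8 shoot replicate 2 (1067.8), and RPS4 set 1 was low in AGR1/8 shoot replicate 3 (1438.8).

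Between tissues, the transgenic effect differed (root minus shoot) for CL18 (-1.04), CL27 set 2 (-0.64) and RPS10-2 (-0.45). Among the lines, the widest gap of line means passed the test for RPS21 set 2 in root (0.73) and for RPL11 (0.69) and rps20 set 1 (0.39) in shoot.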

How the results depend on the processing

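Counts of members called are given here by comparison. The number of all probe sets called moved too. For the larger counts and some others it follows in brackets, of 38129 tested unless stated, with the main count second. For the mean of the lines in root (1 called) the count was 0 with a constant of 1 and with no filter. It was also 0 with array weights, the replicate block and line as a random unit (137 against 2027 in the last). In the single fit of 32 arrays it was 2 (3881 against 2027). In shoot (2 called) it was 1 with line as a random unit (115 against 599), rpl5 being lost. With array weights and in the single fit it was 3 (997 and 650 against 599). For AGR1/7 roots (2) it was 1 with a constant of 1 and with no filter, and 0 with the replicate block. With quantile normalisation it was 3 (935 against 940). In the single fit it was 7 (2569 against 940). For AGR1/8 roots (0) it was 1 in the single fit. For AGR3/8 roots (0) it was 1 with a constant of 64, with the dimmest 50% left out, with quantile normalisation, with median centring and in the single fit. With array weights it was 2 (3261 against 2064). For AGR1/7 shoots (3) it was 1 with no filter and with median centring, and 2 with a constant of 1. With a constant of 64, the replicate block and the single fit it was 4 (624, 728 and 557 against 609). It was 5 with the dimmest 50% left out (727 of 28597, against 609). With array weights it was 6 (1099 against 609) and with quantile normalisation 7 (866 against 609). For AGR3/8 shoots (0) it was 1 with array weights, the replicate block and the single fit. Among lines in root (1) it was 0 with the dimmest 50% left out. With array weights it was 4 (3709 against 1139) and in the single fit 3 (1916 against 1139). Among lines in shoot (2) it was 1 with a constant of 1, and 0 with no filter, median centring or array weights. With quantile normalisation it was 7 (684 against 860). For the transgenic effect in root against shoot (3) it was 6 with a constant of 64 (1226 against 745). It was 5 with the dimmest 50% left out (1029 of 28597, against 745). With quantile normalisation it was 2 (815 against 745), which ended the RPS10-2 call (limma adjusted p = 0.0669). The cause of these shifts was not tested.

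Leaving out 1 array at a time gave 0 to 2 (mean of the lines, root), 1 to 5 (mean of the lines, shoot; 5 without AGR3/8 shoot replicate 1), 0 to 2 (AGR1/7 root), 0 to 4 (AGR3/8 root), 1 to 5 (AGR1/7 shoot), 0 to 2 (AGR1/8 shoot), 0 to 4 (AGR3/8 shoot), 1 to 2 (lines, root), 0 to 6 (lines, shoot; 6 without AGR3/8 shoot replicate 4) and 1 to 10 (effect, root against shoot). All probe sets called were 1018 of 38129 beside that 5 and 1097 beside that 6, against 599 and 860 with every array. Signs turned for CL18 in AGR1/7 roots (-0.02), with 0.071 under array weights and -0.14 to 0.077 over left-out arrays, for the member median in AGR1/8 roots, with -0.11 to 0.00084, and for that in AGR3/8 shoots (0.08), with -0.018 under quantile normalisation. CL18 for the mean of the lines in shoot passed in all of these analyses. The lines are few and wild type is the only control. The fit with line as a random unit therefore cannot decide whether the CL18 change holds across lines, and no conclusion is drawn from its pass there. With the replicate block, 29 members passed in wild type root against shoot (19747 of all 38129 probe sets). Without it 33 did (22566 of all). The blocked fit takes that gap at the level of replicate 1 and not over the group means. These 2 counts thus answer different questions, and no conclusion is drawn from their difference. The block ended the calls for CL27 set 2 in root (limma adjusted p = 0.0727 for the mean of the lines, 0.0791 in AGR1/7) and for RPS21 set 2 in AGR1/7 roots (0.0546). Deviations of same-numbered arrays had a mean r of 0.057 in root (-0.17 to 0.42, with 9 of 24 pairs over 0.1) and 0.029 in shoot (-0.049 to 0.19, with 1 of 24). The array most like a given one had its number for 8 of 16 root and 9 of 16 shoot arrays, a hint from the data that numbers may be shared in part. Not every pair exceeded 0.1 and the labels name no shared batch, so the numbers were not taken as pairs.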
